A study of Mus musculus with 6 samples.

Results

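The 43 genes described here encode the machinery that copies DNA: the factors that license replication origins, the replicative helicase, the polymerases with their clamp and clamp loader, single-strand binding and fragment joining, deoxynucleotide supply, and the copying of DNA methylation. They are given as a list of names with no threshold on measured values, and all 43 were found among the 34745 genes of the deposited table. All 43 also passed the filter on low counts, so no member was lost from the 14084 genes tested.

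The libraries came from cardiac fibroblasts of the left ventricle, taken on Day 7 after myocardial infarction (MI), which was made by ligating the coronary artery that feeds this part of the heart. The 3 libraries labelled KO came from KDM5B-KO mice and the 3 labelled WT from their wild-type littermates. For the MI operation the methods give male mice of 8 to 10 weeks of age. The KO allele is a CRISPR/Cas9 deletion of the part of *Kdm5b* that encodes the demethylase (JmjC) domain, with a frameshift, on a C57BL/6 background. No Cre or restriction to a cell type is described, so other cells of the heart would carry the deletion as well. Whether animals were pooled, how many founders the line has, and whether the 3 libraries of a label came from separate mice are not stated, and the p-values therefore measure the spread between these libraries. KO libraries and WT libraries below mean the libraries with those labels.

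A cell copies its genome once in each division cycle. In G1 phase the origin recognition complex (ORC), CDC6 and CDT1 load rings of MCM2 to MCM7 onto origins, and in S phase CDC45 and the GINS complex turn the loaded rings into working helicases. DNA polymerase alpha with primase starts each strand, and polymerases delta and epsilon extend it on the sliding clamp PCNA, which the RFC complex loads. Many of these genes are read out together at the start of S phase, when E2F transcription factors are released from pocket proteins of the retinoblastoma family. Most cardiac fibroblasts of the healthy adult heart are outside the cycle, and fibroblasts divide in the days after an infarct.

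Because E2F factors bind a short word in promoters, the stretches that hold it are shown first. The promoters were taken from RefSeq for GRCm38.p6, the build that mm10 names, and span 250 bases before to 50 bases after each annotated start. Each was searched on both strands for TTTGGCGC, TTTCGCGC, TTTCCCGC and TTTGCCGC. Of the 43 members, 35 were matched, with 44 promoters. The 8 without an entry were *Gmnn*, *Mcm4*, *Gins1*, *Gins2*, *Gins4*, *Rfc2*, *Prim2* and *Pole*. The stretches below are those of the member with the largest called rise in each role group among members with a word before the start, and 2 of the 6 role groups had no such member. Capitals mark the word, in either orientation, and each stretch reads 5′ to 3′ on the strand of its gene. That of *Cdc6* lies at chr11:98907983-98908050 on the plus strand and falls in an annotated intron of *Cdc6*. That of *Mcm5* lies at chr8:75109326-75109397 on the plus strand, before the gene, and holds 2 words that overlap. That of *Pola1* lies at chrX:93632256-93632323 on the minus strand, before the gene. That of *Uhrf1* lies at chr17:56304098-56304165 on the plus strand, in an annotated intron of *Uhrf1*, and belongs to 1 of its 2 promoters.
Cdc6: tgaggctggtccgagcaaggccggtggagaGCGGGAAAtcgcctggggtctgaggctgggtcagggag
Mcm5: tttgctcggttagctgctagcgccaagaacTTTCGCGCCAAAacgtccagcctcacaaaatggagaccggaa
Pola1: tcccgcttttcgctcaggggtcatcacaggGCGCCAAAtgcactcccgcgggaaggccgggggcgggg
Uhrf1: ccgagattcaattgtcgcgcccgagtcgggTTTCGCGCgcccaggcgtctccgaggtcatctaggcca

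The word lay 138 bases before the annotated start in *Cdc6* and in *Pola1*, 153 and 149 bases before it in *Mcm5*, and 185 bases before it in *Uhrf1*. An E2F word was present in 15 of the 44 member promoters (34.1%), against 744 of the 32851 promoters in the table (2.26%). Only bases before the start were counted in a second search, which left 10 member promoters (22.7%) against 1.86% of all. The word CCAAT, which the factor NF-Y binds, was present in 27 of the 44 (61.4%) and in 37.4% of all promoters. A match is a string of letters and not a measured binding site. Each E2F word searched holds CG, and the set of all promoters was not matched to the members in CG content or expression.

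In the measurements, 36 of the 43 members rose in the KO libraries, none fell, and 7 did not pass the test (edgeR's quasi-likelihood test, Benjamini-Hochberg adjusted p under 0.05 over all genes tested). Over all 14084 genes, 17.7% were called higher and 12.5% lower. The median log2 fold change of the members was 0.56, against -0.02 over all genes tested, and the members ran from -0.09 for *Pold2* to 1.51 for *Cdc6*. Of the members, 41 had a log2 fold change above 0, against 47.7% of all genes. In 38 members each KO library lay above each WT library, which 24.7% of all genes showed, and no member showed the reverse. The rises were mostly under 2-fold: 7 members were called higher with a fold change over 2, against 5.99% of all genes. No member was called lower by edgeR, DESeq2 or limma, and none had a fall at an unadjusted p under 0.05. A further annotated gene on the opposite strand overlaps 11 of the members, and all 11 were called higher. Without them 25 of 32 members were called higher, with a median log2 fold change of 0.56. In such bulk libraries, more dividing cells, more RNA per cell and a changed mix of cell types cannot be told apart.

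The summed level of the members, in TMM-normalized CPM (counts scaled to a common library total), was 2331, 2174 and 2278 in the KO libraries. It was 1577, 1525 and 1552 in the WT libraries. The sums did not overlap, and their means were 2261 ± 79.7 and 1551 ± 26.0 CPM (SD, n = 3 each), a ratio of 1.46. As a share of all raw counts the members took 0.237%, 0.218% and 0.231% of the KO libraries and 0.156%, 0.150% and 0.153% of the WT libraries.

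**Figure D1:**
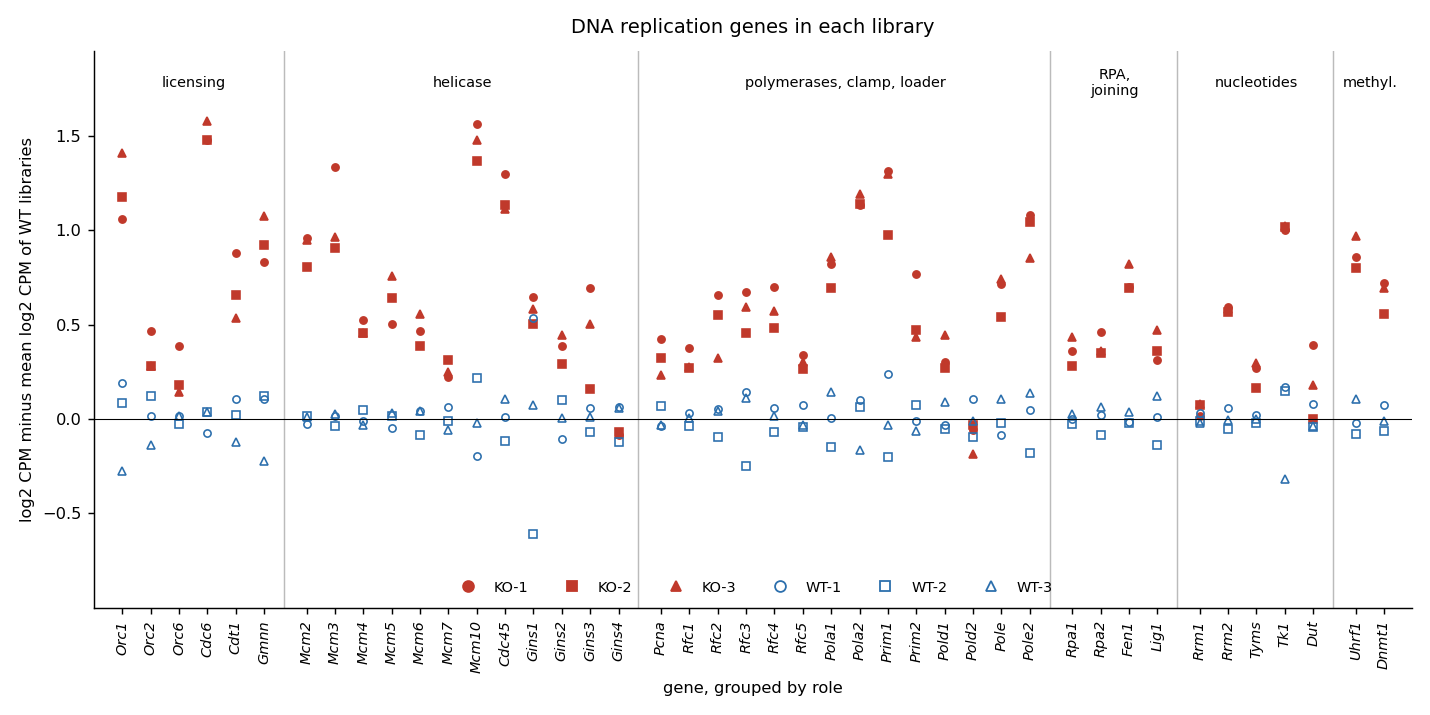
Each column is 1 of the 43 genes, grouped by role, and each symbol is 1 library. The vertical axis gives the log2 CPM minus the mean log2 CPM of the 3 libraries labelled WT. Filled red symbols (KO) stand above open blue symbols (WT) in 38 columns. *Gins1*, *Gins4*, *Pold2*, *Rrm1* and *Dut* are the columns in which they overlap.

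Origin licensing held the member with the largest rise. *Cdc6* (ENSMUSG00000017499, chromosome 11 from 98907801 to 98923940 in mm10) encodes the ATPase that joins ORC to load the MCM ring. Its CPM were 28.5, 28.5 and 30.6 in the KO libraries and 9.73, 10.5 and 10.5 in the WT libraries. Both sets were narrow and far apart. The rise was 2.85-fold, or 1.51 on the log2 scale (standard error 0.09, edgeR adjusted p = 1.4e-05). *Orc1* (ENSMUSG00000028587, chromosome 4 from 108579423 to 108614833) encodes the ORC subunit whose amount changes over the cycle. It had 10.6, 11.5 and 13.5 CPM against 5.81, 5.39 and 4.19, and rose by 1.21 on the log2 scale (standard error 0.16, edgeR adjusted p = 0.00106).

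*Cdt1* and *Gmnn* encode opposite partners: CDT1 brings the MCM ring to the origin, and geminin, the product of *Gmnn*, binds CDT1 and blocks it once S phase has begun. *Cdt1* had 45.0, 38.6 and 35.5 CPM in the KO libraries and 26.3, 24.8 and 22.5 in the WT libraries (log2 fold change 0.69, standard error 0.10). *Gmnn* had 12.4, 13.2 and 14.7 CPM against 7.49, 7.58 and 5.97 (0.94, standard error 0.13). Both rose, with edgeR adjusted p of 0.00189 and 0.00144, and in each the labels did not overlap. Within the KO libraries their order was opposite, with *Cdt1* highest and *Gmnn* lowest in replicate 1.

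The other ORC subunits of the list moved less. *Orc2* had 52.5, 46.2 and 46.2 CPM against 38.4, 41.4 and 34.5 (log2 fold change 0.34, standard error 0.09, edgeR adjusted p = 0.0204). That call was lost without KO replicate 1 (0.0562), without WT replicate 1 (0.0564) and without WT replicate 3 (0.0707). *Orc6* had 26.5, 23.0 and 22.4 CPM against 20.5, 19.9 and 20.5, did not overlap between the labels, and did not pass the test (0.24, edgeR adjusted p = 0.0846). *Orc3*, *Orc4* and *Orc5*, which are not members, had log2 fold changes of 0.05, 0.09 and 0.09 and edgeR adjusted p of 0.629, 0.360 and 0.542. Of the 6 ORC genes, then, 2 rose, and their median was 0.17. Of the 6 licensing members 5 rose, with a median of 0.82.

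The replicative helicase is the largest moving part of the fork, built from the MCM ring, CDC45 and GINS. All 6 genes of the ring rose, *Mcm2* to *Mcm7*, by 0.26 to 1.08 on the log2 scale with a median of 0.56. *Mcm3* (ENSMUSG00000041859, chromosome 1 from 20802968 to 20820312) was at 167, 124 and 129 CPM in the KO libraries and 66.8, 64.4 and 67.4 in the WT libraries (1.08, standard error 0.11, edgeR adjusted p = 2.6e-04). KO replicate 1 stood above the other two for this gene, and the log2 fold change was 0.94 without it.

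*Mcm2* had 147, 132 and 146 CPM against 74.1, 76.4 and 76.1, and rose by 0.91 (standard error 0.06, edgeR adjusted p = 2.6e-05). The subunits of the ring work in equal numbers, and the rises of their transcripts differed in size. *Mcm5* had 72.0, 79.1 and 85.8 CPM against 49.1, 51.4 and 51.9 (log2 fold change 0.64, standard error 0.07). *Mcm4* and *Mcm6* rose by 0.48 and 0.47, with standard errors of 0.05 and 0.06. *Mcm7* rose least, from 73.5, 69.8 and 67.5 to 81.9, 87.1 and 83.4 CPM (0.26, standard error 0.06, edgeR adjusted p = 0.0105). The intervals of 2 standard errors of *Mcm7*, 0.15 to 0.37, and of *Mcm2*, 0.79 to 1.02, were apart. *Mcm7* shares its locus with *Cops6* and *Ap4m1* on the opposite strand, and whether the counting used strand is not given in the sources used here.

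*Mcm10* and *Cdc45* act when a loaded ring becomes an active helicase, and both had larger log2 fold changes than any gene of the ring. *Mcm10* (ENSMUSG00000026669, chromosome 2 from 4989714 to 5012791) was at 34.6, 30.2 and 32.6 CPM in the KO libraries and 10.2, 13.6 and 11.5 in the WT libraries. Its rise of 1.46 (standard error 0.12, edgeR adjusted p = 7.2e-05) was second to that of *Cdc6* among the members. *Cdc45* had 37.3, 33.3 and 32.8 CPM against 15.3, 14.0 and 16.3 (log2 fold change 1.18, standard error 0.09, edgeR adjusted p = 6.5e-05). *Cdc45* overlaps *Ufd1l* on the opposite strand, as *Orc1* overlaps Gm12743, *Orc2* overlaps *Nif3l1* and *Gins2* overlaps *Gse1*.

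The 4 GINS genes, whose products form a single complex, were called in 1 case of 4. *Gins2* rose from 13.5, 15.6 and 14.6 to 19.0, 17.8 and 19.8 CPM (log2 fold change 0.37, edgeR adjusted p = 0.0206), and lost its call without KO replicate 3 (0.0694), WT replicate 1 (0.0633) or WT replicate 3 (0.0573). *Gins1* had 6.88, 6.23 and 6.58 CPM against 6.37, 2.87 and 4.62, so that WT replicate 1 lay inside the range of the other label. Its log2 fold change was 0.51 with a standard error of 0.26, the widest among the members, and WT replicate 2 rested on 42 counts, the fewest of any member in any library. It was 0.25 without WT replicate 2, and 0.81 without WT replicate 1, where it was called (edgeR adjusted p = 0.0433). *Gins3* had 8.93, 6.15 and 7.80 CPM against 5.74, 5.25 and 5.55 (0.47, edgeR adjusted p = 0.0650), and was called without KO replicate 2 (0.61, edgeR adjusted p = 0.0212). *Gins4* had 25.1, 25.4 and 25.2 CPM against 27.8, 24.5 and 27.7, with a log2 fold change of -0.08 and an interval of 2 standard errors from -0.24 to 0.08. The upper end of that interval lay below the log2 fold change of each of *Mcm2* to *Mcm7*, whereas the interval of *Gins1* ran from -0.01 to 1.02. Of the 12 helicase members 9 rose, with a median of 0.49.

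The 4 genes of DNA polymerase alpha and primase, the enzyme that lays down primers and the first stretch of DNA, rose together, with a median of 0.97. *Prim1*, the catalytic primase subunit (ENSMUSG00000025395, chromosome 10 from 128015168 to 128030037), was at 26.0, 20.5 and 25.7 CPM in the KO libraries and 12.3, 9.08 and 10.2 in the WT libraries. Its log2 fold change was 1.19 (standard error 0.14, edgeR adjusted p = 6.0e-04). *Pola2*, the accessory subunit of the polymerase, had 48.1, 48.3 and 50.1 CPM against 23.5, 22.9 and 19.6 (1.15, standard error 0.08, edgeR adjusted p = 4.3e-05). The KO libraries agreed closely for *Pola2*, with an SD of 1.08 CPM. *Pola1*, the catalytic subunit, had 32.3, 29.6 and 33.2 CPM against 18.4, 16.5 and 20.2 (0.79, standard error 0.10). *Prim2*, the large primase subunit, had 24.6, 20.0 and 19.5 CPM against 14.3, 15.2 and 13.8 (0.56, standard error 0.11).

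The polymerases that extend the strands did not move as a block. *Pole*, the catalytic subunit of the leading-strand polymerase, had 48.3 ± 3.50 CPM (SD, n = 3) against 30.5 ± 2.04 (log2 fold change 0.67, standard error 0.08). *Pole2*, its second subunit, had 11.5, 11.2 and 9.80 CPM against 5.60, 4.78 and 5.97 (0.99, standard error 0.14). Both rose, with edgeR adjusted p of 6.9e-04 and 0.00127, and the labels did not overlap. *Pold1*, the catalytic subunit of the lagging-strand polymerase, had 38.5, 37.7 and 42.6 CPM against 30.5, 30.1 and 33.2 and rose by 0.34 (edgeR adjusted p = 0.0123). *Pold2*, its partner subunit, had 22.3, 22.7 and 20.4 CPM against 25.0, 21.7 and 23.0. The log2 fold change of *Pold2* was -0.09, with an interval of 2 standard errors from -0.27 to 0.09 and an edgeR adjusted p of 0.470. Over all 4 subunits of each enzyme, 2 of *Pold1* to *Pold4* and 2 of *Pole* to *Pole4* were called higher, with medians of 0.18 and 0.38.

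*Pcna*, the sliding clamp and a common marker of proliferating cells, had a smaller log2 fold change than most members. It had 104, 97.1 and 91.2 CPM in the KO libraries and 75.4, 81.4 and 75.8 in the WT libraries (log2 fold change 0.33, standard error 0.07, edgeR adjusted p = 0.00685). All 5 genes of the clamp loader rose, by 0.30 to 0.58 with a median of 0.51. *Rfc4* had 12.7, 10.9 and 11.6 CPM against 8.12, 7.44 and 7.89 (0.58, edgeR adjusted p = 0.00627), and *Rfc3* rose by 0.57. *Rfc1*, the large subunit, had 72.8, 67.6 and 67.8 CPM against 57.4, 54.7 and 56.2 (0.31, edgeR adjusted p = 0.00513). *Rfc5* was the least firm call of all members, at 20.2, 19.2 and 19.7 CPM against 16.8, 15.5 and 15.6 (0.30, edgeR adjusted p = 0.0286). It was called in 9 of 16 alternative analyses and not by DESeq2 (adjusted p = 0.0951). *Rfc2*, *Rfc4* and *Rfc5* each overlap a gene on the opposite strand, which for *Rfc2* was *Lat2*, for *Rfc4* *Eif4a2* and for *Rfc5* *Wsb2*.

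**Figure D2:**
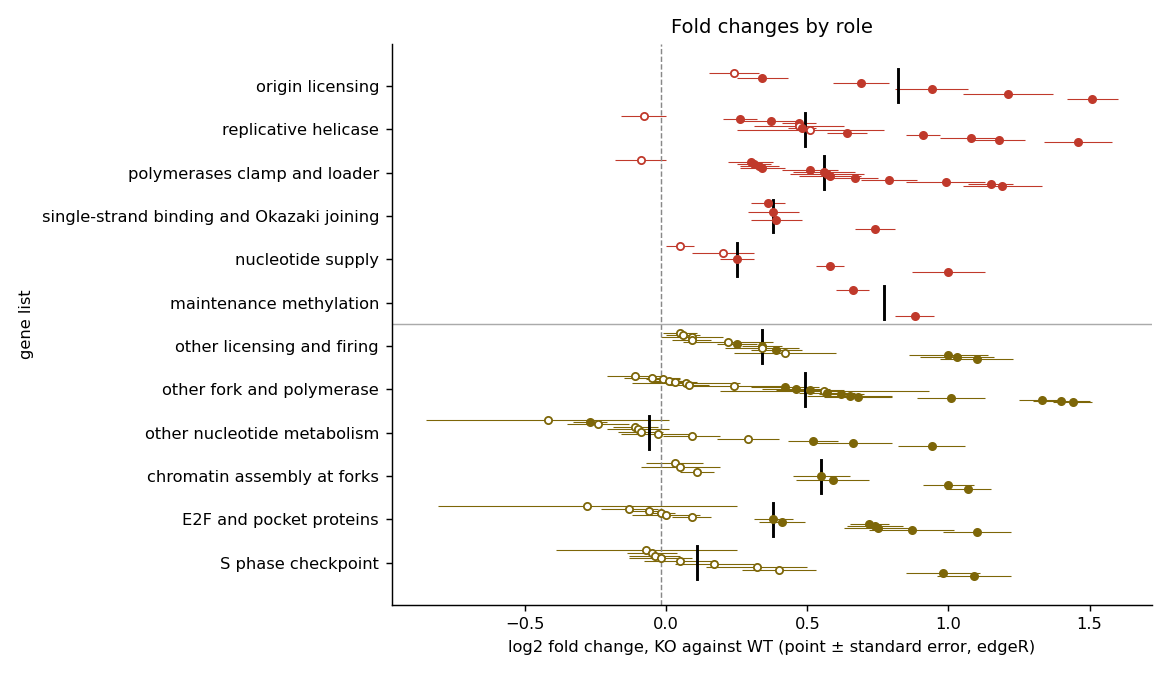
Each point is 1 gene, placed by its log2 fold change (KO against WT) with its standard error from edgeR. Filled points were called, black bars mark list medians, and the dashed line marks the median of all genes tested, -0.02. The 6 upper lists (red) hold the 43 genes, with medians from 0.25 for nucleotide supply to 0.82 for origin licensing, and the 6 lower lists hold 75 further genes.

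The genes that protect and join the new strands rose in 4 of 4 cases, with a median of 0.38. *Fen1*, the nuclease that trims Okazaki fragments, had 41.4, 41.3 and 45.0 CPM against 25.2, 25.1 and 26.2 (log2 fold change 0.74, standard error 0.07, edgeR adjusted p = 1.7e-04). *Lig1*, the ligase that seals them, had 39.4, 40.7 and 44.0 CPM against 32.0, 28.9 and 34.6 (0.38, standard error 0.09, edgeR adjusted p = 0.0116). *Rpa1* and *Rpa2*, subunits of the protein that coats single-stranded DNA, rose by 0.36 and 0.39, with edgeR adjusted p of 0.00270 and 0.0111. Both are also used in DNA repair. *Fen1* overlaps *Tmem258* and *Lig1* overlaps 6330408A02Rik on the opposite strand.

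Nucleotide supply was the role group with the lowest median, 0.25, and 3 of its 5 members rose. Ribonucleotide reductase makes deoxynucleotides from a large subunit, *Rrm1*, and a small subunit whose amount peaks in S phase, *Rrm2*. *Rrm2* (ENSMUSG00000020649, chromosome 12 from 24708241 to 24714146) was at 87.2, 85.5 and 86.4 CPM against 60.1, 55.6 and 57.6 (log2 fold change 0.58, standard error 0.05, edgeR adjusted p = 1.7e-04). *Rrm1* had 172, 179 and 180 CPM against 174, 169 and 168, with a log2 fold change of 0.05 and an interval of 2 standard errors from -0.04 to 0.15. *Rrm1* was the member with the highest level per length.

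*Tk1*, the S phase thymidine kinase, had the largest rise of this group. Its CPM were 26.7, 27.0 and 27.1 in the KO libraries and 15.0, 14.8 and 10.7 in the WT libraries (a 1.99-fold rise, edgeR adjusted p = 8.9e-04). WT replicate 3 was the low library, and *Tk1* overlaps *Afmid* on the opposite strand. *Tyms*, the enzyme that makes thymidylate, had 51.3, 47.6 and 52.2 CPM against 43.1, 41.9 and 42.4 (0.25, edgeR adjusted p = 0.0193). Leaving out KO replicate 3 or any 1 of the WT libraries ended the call, with edgeR adjusted p of at most 0.0706. *Dut*, which removes dUTP, had 26.0, 19.8 and 22.4 CPM against 20.9, 19.2 and 19.3, overlapped between the labels and did not pass (0.20, edgeR adjusted p = 0.215). Its log2 fold change ran from 0.10 to 0.30 when 1 library was left out.

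Both members that copy DNA methylation onto the new strand rose. *Uhrf1*, which recognizes the half-methylated sites left by replication (ENSMUSG00000001228, chromosome 17 from 56303321 to 56323486), had 76.0, 73.2 and 82.3 CPM against 41.3, 39.7 and 45.1. Its log2 fold change was 0.88 (standard error 0.07, edgeR adjusted p = 9.1e-05). *Dnmt1*, the methyltransferase that it recruits, had 186, 166 and 183 CPM against 119, 108 and 112 (0.66, standard error 0.06, edgeR adjusted p = 1.8e-04). Their log2 fold changes had a median of 0.77.

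Levels of different genes were compared per gene length, in the deposited FPKM values. In the libraries labelled WT the members ran from 1.05 ± 0.0444 FPKM for *Cdc6* to 42.1 ± 0.898 for *Rrm1* (SD, n = 3), with a median of 4.90. *Mcm10* and *Orc1*, at 1.08 ± 0.153 and 1.15 ± 0.189, stood next to *Cdc6*, and these 3 neighbours did not differ beyond their spread. *Pcna* (21.8 ± 0.895), *Gins4* (19.3 ± 1.39), *Dnmt1* (17.5 ± 0.897) and *Mcm4* (17.4 ± 0.459) followed *Rrm1* at the top. Among the last 3, the SD ranges of neighbours in this order overlapped. The 3 members with the lowest levels also had the 3 largest log2 fold changes. Across the 43 genes the WT level and the log2 fold change had a Spearman correlation of -0.47 and, on log2 levels, a Pearson correlation of -0.51. This describes genes that share the same 6 libraries, and the WT libraries enter both measures. The 22 members with the higher WT levels had a median log2 fold change of 0.43, and the other 21 a median of 0.58.

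**Figure D3:**
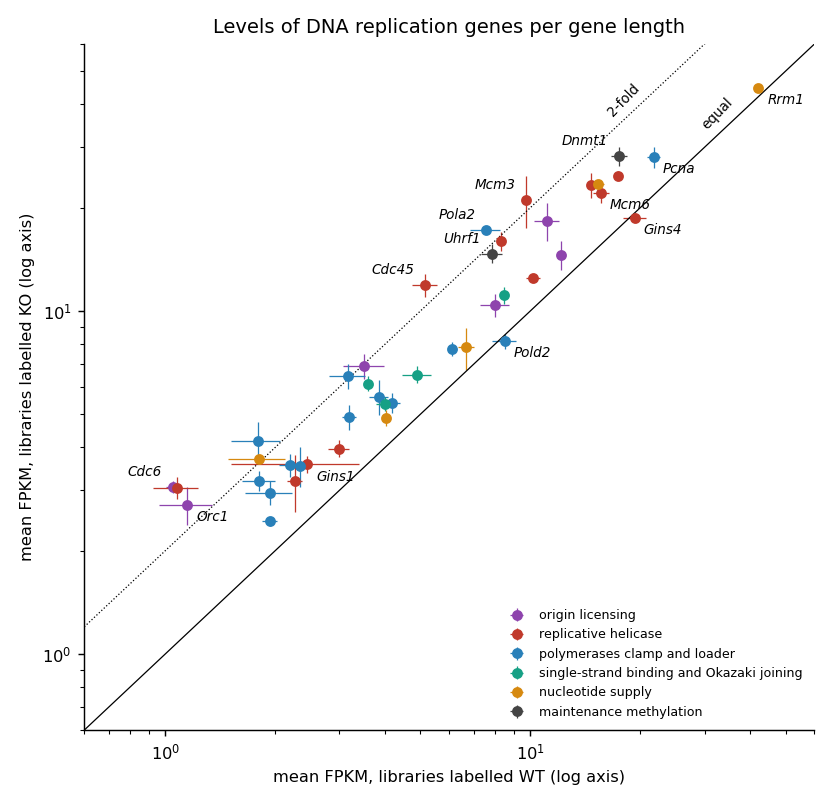
Each point is 1 of the 43 genes, with its mean FPKM in the WT libraries (horizontal) and KO (vertical) on log axes, and bars of ± 1 SD over 3 libraries. The solid line marks equal levels and the dotted line a 2-fold rise. *Cdc6*, *Mcm10* and *Orc1* lie at the lower left above the dotted line, and *Rrm1*, *Gins4* and *Pold2* lie near the solid line.

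Members that work as partners were also compared as ratios within each library, which do not depend on how libraries are scaled. There were 9 such ratios, and 6 of them did not overlap between the labels, each higher in the KO libraries. The direction of a ratio depends on which partner was put on top, and its difference restates the fold changes of its genes. Of single genes, 24.7% lay wholly higher and 22.4% wholly lower in the KO libraries, and no such share was computed for ratios, so the count of 6 is a description. With 3 libraries against 3 the exact two-sided permutation test cannot go below p = 0.1, which those 6 reached (0.150 after Benjamini-Hochberg adjustment over the 9), so no ratio passes 0.05 in this design. The ratio of *Rrm2* to *Rrm1*, small to large subunit, was -0.98, -1.07 and -1.06 on the log2 scale in the KO libraries and -1.53, -1.61 and -1.54 in the WT libraries. The difference of 0.53 stood against SDs of 0.05 and 0.04. The ratio of *Orc1* to *Orc2* was -2.31, -2.01 and -1.78 against -2.72, -2.94 and -3.04, a difference of 0.87. That of *Pold1* to *Pold2* was 0.79, 0.73 and 1.06 against 0.29, 0.47 and 0.53, a difference of 0.43.

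The ratio of the MCM ring to *Orc2* differed by 0.29, that of *Uhrf1* to *Dnmt1* by 0.22, and that of *Rfc2* to *Rfc5* against *Rfc1* by 0.19, all higher in the KO libraries without overlap. The ratio of *Cdt1* to its inhibitor *Gmnn* was 1.85, 1.55 and 1.27 against 1.81, 1.71 and 1.92. It overlapped between the labels (difference -0.26, exact permutation p = 0.300). The ratio of *Pole2* to *Pole* (difference 0.33, exact permutation p = 0.200) and that of the other GINS genes to *Gins3* (difference -0.16, exact permutation p = 0.400) overlapped as well.

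**Figure D4:**
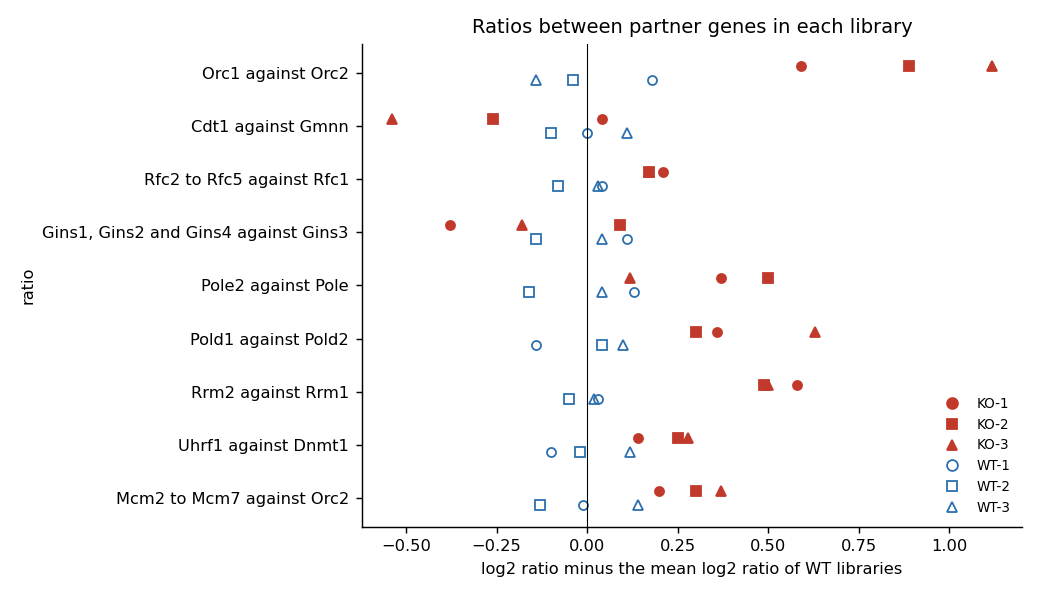
Each row is the log2 ratio between partner genes, minus the mean of that ratio in the 3 libraries labelled WT, and each symbol is 1 library (filled red, KO; open blue, WT). The 6 rows without overlap include *Orc1* against *Orc2* (difference 0.87) and *Rrm2* against *Rrm1* (0.53). *Cdt1* against *Gmnn* is among the 3 rows that overlap.

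The libraries of a label differed from each other in a shared way. KO replicate 1 was the highest of its label in 23 members, KO replicate 3 in 17 and KO replicate 2 in 3, and KO replicate 2 was the lowest in 25. Their median log2 distances above the WT mean were 0.66, 0.48 and 0.56 for replicates 1, 2 and 3. Each lay above the WT mean in 41 of the 43 members. The WT libraries had the same order by number. WT replicate 1 was the highest of its label in 21 members, WT replicate 3 in 14 and WT replicate 2 in 8. WT replicate 2 was the lowest in 26. The coefficient of variation within a label had a median of 6.03% for KO and 5.28% for WT over the members, and was highest for *Gins3* among the KO libraries (18.3%) and for *Gins1* among the WT libraries (37.9%).

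The 15 members with an E2F word in a promoter had a median log2 fold change of 0.66 (range 0.26 to 1.51), and 14 of them were called. The 20 matched members without it had a median of 0.38 (-0.09 to 1.46), and 16 were called. The ranges overlapped over most of their length: *Mcm10*, *Prim1*, *Cdc45* and *Pola2*, with rises over 2-fold, held none of the searched words in their windows, and *Mcm7*, with the smallest rise of its ring, held one. All 8 matched helicase members held CCAAT, and none of the 5 nucleotide supply members held an E2F word.

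The E2F factors and pocket proteins themselves were split. Of 13 genes of this list, 7 were called higher and none lower by edgeR, and none of the other 6 was called lower in any alternative. *E2f1*, an activator, had 42.7, 37.8 and 39.4 CPM in the KO libraries and 24.8, 23.7 and 24.5 in the WT libraries (log2 fold change 0.72, standard error 0.07, edgeR adjusted p = 2.8e-04). *E2f2*, a second activator, rose by 0.87. *E2f7* and *E2f8*, the atypical repressors that are themselves made in S phase, rose by 0.75 and 1.10. *E2f8* had 21.4, 22.7 and 24.6 CPM against 12.5, 9.76 and 9.74 (edgeR adjusted p = 4.3e-04). *E2f6*, another repressor, rose by 0.38.

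Of the pocket proteins, *Rb1* rose by 0.41 and *Rbl1*, which is a known E2F target, by 0.74, from 21.4, 19.7 and 20.6 to 39.5, 31.8 and 31.8 CPM. *Rbl2*, the pocket protein of resting cells, had a log2 fold change of -0.13 (edgeR adjusted p = 0.383). *E2f3*, *E2f4* and the E2F partner *Tfdp1* had log2 fold changes of -0.06, 0.09 and -0.02 and edgeR adjusted p of 0.463, 0.387 and 0.815. *E2f5* had a mean of 11.7 CPM in both labels. *Tfdp2*, a second partner, had 32.6, 13.2 and 10.6 CPM against 12.6, 41.0 and 14.2, with 1 high library in each label, and its log2 fold change of -0.28 had a standard error of 0.53. Under marker scaling, which is described with the marker genes below, the log2 fold changes of *E2f3*, *Tfdp1*, *Tfdp2* and *Rbl2* turned to 0.33, 0.38, 0.11 and 0.27.

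Outside this list, 62 further genes of replication were read from 5 lists: 26 were called higher and 1 lower, beside 17.7% and 12.5% of all genes, and their median log2 fold change was 0.27. In other licensing and firing factors 6 of 13 were called higher, in other fork and polymerase genes 11 of 20, and in chromatin assembly at forks 4 of 7. In the S phase checkpoint 2 of 10 (20.0%) were called higher, and in other nucleotide metabolism 3 of 12 (25.0%) with 1 lower, shares near the 17.7% of all genes. *Top2a*, the topoisomerase that untangles replicated DNA and is also a mitotic gene, had 350, 300 and 353 CPM against 122, 124 and 122 (log2 fold change 1.44, standard error 0.07, edgeR adjusted p = 7.3e-06). *Timeless*, of the fork protection complex, had 41.8, 34.1 and 35.9 CPM against 14.1, 14.1 and 14.1 (1.40, edgeR adjusted p = 3.4e-05). *Hells*, a chromatin remodeller, rose by 1.33. *Ticrr*, which helps bring CDC45 to origins, and *Rad9a*, of a checkpoint clamp, rose by 1.10 and 1.09. *Ticrr* and *Rad9a* overlap *Kif7* and *Ppp1ca* on the opposite strand.

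The 1 gene called lower was *Ctps*, which makes CTP for RNA as well as DNA, at 263, 298 and 277 CPM against 332, 349 and 330 (log2 fold change -0.27, edgeR adjusted p = 0.00745). Under marker scaling its log2 fold change turned to 0.12.

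The 25 genes of a mitotic list moved with the members and by more: 24 of 25 were called higher, with a median log2 fold change of 0.93. Their summed CPM were 1685, 1486 and 1649 in the KO libraries and 809, 817 and 814 in the WT libraries, a ratio of 1.98 against 1.46 for the replication genes. The difference between these ratios was not tested. In both lists, KO replicate 1 had the highest sum and KO replicate 2 the lowest of its label.

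Markers of other cells moved with the label too. All 10 fibroblast markers, *Col1a1*, *Pdgfra* and *Postn* among them, were called lower, with a median of -0.42, and none was absent. Of 10 endothelial markers, 9 were called higher, with a median of 2.43, and their summed CPM were 2027, 1403 and 1636 against 264, 266 and 257. *Cldn5*, the tenth, stayed near 1 CPM, at means of 1.08 and 1.07. No endothelial marker was at 0 in any library. The cardiomyocyte list had 7 of 10 lower with a median of -0.41, and the macrophage list 6 of 10 lower and 1 higher with a median of -0.39. Of 8 mural markers tested 4 were lower and 2 higher, of 5 neutrophil markers 1 was lower and 2 higher, and no lymphocyte marker passed the filter on low counts. The endothelial sum had the same order over the KO libraries as the sum of the replication genes, and its part in their rise was not tested.

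**Figure D5:**
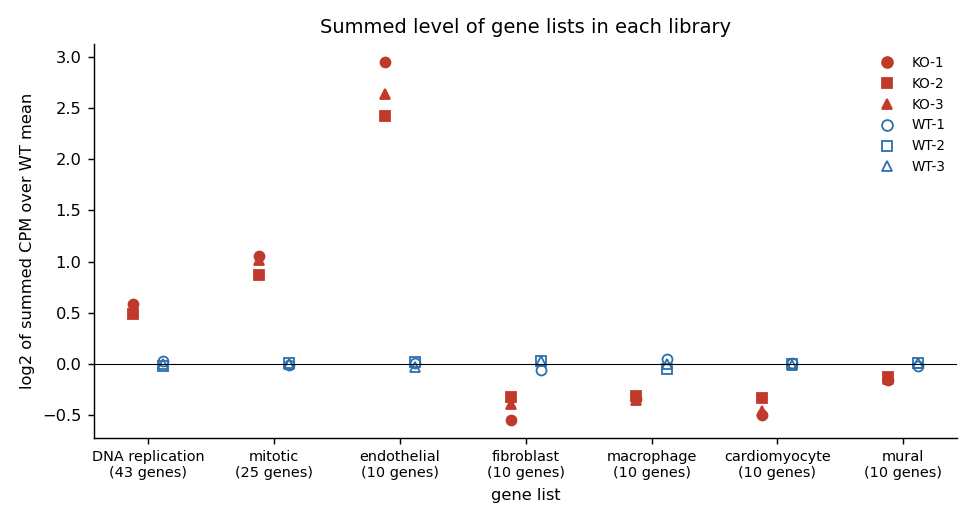
The summed CPM of each gene list in each library, as log2 over the mean of the 3 libraries labelled WT (filled red, KO; open blue, WT). The replication and mitotic lists lie above 0 in each library labelled KO, with ratios of the mean sums of 1.46 and 1.98, and the endothelial list lies highest (6.43). The fibroblast, macrophage and cardiomyocyte lists lie below 0 (0.748, 0.790 and 0.744), and the mural list lies just below it (0.905).

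Since the cardiomyocyte and macrophage lists shifted by nearly the same amount, the libraries were also scaled so that the median ratio of these genes was 1. This marker scaling moved the median of all genes by 0.394 on the log2 scale, to 0.38, and the median of the members to 0.96. All 43 members were then called higher, beside 60.2% of all genes, and the genes called lower went from 1760 to 45. The fall of the fibroblast list was lost, with a median of -0.03 and none of 10 called in either direction, while 9 of 10 endothelial markers (median 2.83) and 25 of 25 mitotic genes (median 1.33) were called higher. Among the members, the log2 fold changes of *Gins4* and *Pold2* turned from -0.08 and -0.09 to 0.32 and 0.30. The direction of these 2 members therefore depended on the scaling. As the lists used had fallen, this scaling raises all other genes. It could not turn the other 41 members, which were above 0 before it. The fall of the fibroblast list was of similar size to this shift, so its loss was fixed by the choice of lists.

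The libraries held 12025403 to 15329427 counts, and each member had at least 42 counts in each library. The biological coefficient of variation between replicates was 10.9%, and 73.4% of the variance lay on the first principal component. *Kdm5b* itself had 98.1, 107 and 105 CPM in the KO libraries and 108, 129 and 123 in the WT libraries (log2 fold change -0.22, edgeR adjusted p = 0.0574). It did not pass the test, and gene totals do not show whether reads cover the deleted part, so groups are named here by their labels. For cardiac fibroblasts from KO mice, the paper reports hardly any *Kdm5b* mRNA by Q-PCR and hardly any KDM5B protein by immunoblot. Which part of the transcript that Q-PCR covers is not given in the sources used here.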

How the data were processed

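RNA-seq covered 3 libraries labelled KO and 3 labelled WT. Reads were aligned by the authors with HISAT2 to mm10. The deposited table holds whole-number counts per gene, without normalization, and the authors' FPKM values, which are those counts per gene length and library total. The submitters' processing notes also name GRCm38.p4 and edgeR. The counting tool, the annotation release and the strand setting are not given in the sources used here.

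The main test of the deposited counts was the quasi-likelihood test of edgeR 4.0.16, run in R 4.3.3 (TMM normalization after filterByExpr, all 6 libraries, no covariate, Benjamini-Hochberg adjustment over the 14084 genes tested of 20854 with any count). A gene was called at an adjusted p under 0.05. The standard error is the size of the log2 fold change divided by the square root of the F statistic. CPM values are TMM-normalized, and levels of different genes were compared only in the authors' FPKM. Totals of 12025403 to 15329427 counts set the counting precision, and 3 libraries per label limit that of each comparison. Ratios between partners were compared with exact two-sided permutation tests. The tests were tested on simulated data.

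Other settings tried were scaling by library size, by the upper quartile or by marker genes, a filter at a mean CPM of 1 or none, DESeq2 1.42.0, limma 3.58.1 on log2(FPKM + 0.1) and log2(FPKM + 1), leaving out 1 library at a time, a replicate block, and an added fold threshold of 2. The members, the lists and the tests were chosen with earlier results of these data known. Named genes are all members, *Kdm5b*, the E2F list, and of the other lists the 5 largest rises and falls among called genes. Genes named beyond this rule were *Orc3*, *Orc4*, *Orc5* and markers, to complete a complex or a list. Promoters came from RefSeq for GRCm38.p6. Plots used Python 3.11.15 with matplotlib 3.10.9.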

Additional observations from a re-analysis of the deposited data

How the results depend on the processing

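Of the 36 members called higher, 32 were called in all 16 alternative analyses (the added fold threshold apart). *Orc2*, *Gins2*, *Rfc5* and *Tyms* lost the call in some. Of the 7 not called, *Orc6* and *Gins3* were called in limma with the filter (adjusted p of 0.0340 to 0.0478), *Gins3* also without KO replicate 2 and *Gins1* without WT replicate 1, and all 7 under marker scaling. The number called higher was 7 with a fold change above 2 in addition and 32 to 37 when 1 library was left out, and none was called lower in any alternative. The median log2 fold change of the members, 0.56, was 0.48 in limma on log2(FPKM + 1) with and without the filter, 0.96 under marker scaling, and 0.48 to 0.61 when 1 library was left out. Of the 75 further genes, with the E2F and pocket protein list included, the 33 called higher were 65 under marker scaling and 10 with the fold threshold, and the 1 called lower became 0 in both. Marker scaling reversed the log2 fold changes of *Gins4* (0.32), *Pold2* (0.30), *Ctps* (0.12), *E2f3* (0.33), *E2f5* (0.39), *Tfdp1* (0.38), *Tfdp2* (0.11), *Rbl2* (0.27) and *Kdm5b* (0.18), as scaling to lists that fell must raise all other genes. *E2f5*, whose fold change was nearly 0, turned to 0.03 with library size, to 0.02 and 0.03 in limma, and ran from -0.08 to 0.06 when 1 library was left out. *Tfdp1* turned to 0.02 with library size and in limma, and ran from -0.04 to 0.00 when 1 library was left out. *Tfdp2* ran from -0.92 without KO replicate 1 to 0.47 without WT replicate 2. None of these last reversals was called.

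With the replicate number as a block, 35 members, 33 of these 75 genes and 2316 of all genes were called higher, and 1591 of all genes lower. *Rfc5* was the member that lost its call (adjusted p = 0.0507). The block left the members' median at 0.56. Libraries that share a number showed little shared deviation, with correlations of -0.000182, 0.00395 and 0.0365 over genes. Pairing by number was thus not seen over all genes, and so few libraries cannot exclude it. The summed level of the members did have the same order in both labels, with replicate 1 highest and replicate 2 lowest.

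Depth limits *Gins1* most among the members, with 42 counts in its lowest library.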
